A study of Mus musculus with 6 samples.

Results

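The 10 imprinted genes that regulate growth were followed on 6 Affymetrix mouse expression arrays of embryonic stem (ES) cells. They were chosen by name, and every probe set annotated to them was kept, which gave 27 of the 45037 probe sets other than controls, for 10 of the 19324 genes that the annotation names. Cdkn1c, H19, Meg3, Grb10 and Phlda2, known in mouse as expressed from the maternal allele, had 17 of these probe sets. Igf2, Peg3, Peg10, Mest and Nnat, known as expressed from the paternal allele, had the other 10. The arrays measure total RNA and do not tell the parental alleles apart.

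The ES cells were 129/B6 hybrids, and each of 3 clones gave 1 array after 4-hydroxytamoxifen (OHT) and 1 array without it. In OHT+ cells, 0.8 µM of the drug for 24 hours was used to deplete Rybp, a subunit of variant Polycomb repressive complex 1. OHT- cells were untreated and wild type for Rybp. Clones 3086 and 3087 had a knockdown of Yaf2, the paralogue of Rybp (Yaf2kd), also labelled as a Yaf2 mutation, and clone 3031 was wild type for Yaf2 (Yaf2wt). The groups were thus Yaf2kd OHT+ and Yaf2kd OHT- with 2 arrays each, and Yaf2wt OHT+ and Yaf2wt OHT- with 1 array each. The allele or Cre driver that makes Rybp sensitive to OHT, the knockdown method and the time of harvest were not in the sources used. No cells without the OHT-sensitive Rybp were among the samples, so an effect of the drug itself and the loss of Rybp cannot be told apart. Yaf2 status and clone cannot be told apart either, because Yaf2wt is 1 clone. Cultures grew on feeder fibroblasts or on gelatin, per the labels' protocols, and the surface of each sample is not given. All p-values measure the spread between these arrays.

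An imprinted gene is expressed mainly from the copy inherited from one parent, and the choice is carried by DNA methylation set in the germ line. Many such genes act on fetal and placental growth: several paternally expressed genes, such as Igf2, promote it, and several maternally expressed genes, such as Cdkn1c, Phlda2 and Grb10, restrain it. They lie in clusters. In the RefSeq annotation H19 and Igf2 are neighbours with 0 protein-coding genes between them, Cdkn1c and Phlda2 have 1 between them (Slc22a18), and Nnat lies within Blcap. Peg3, H19, Igf2, Cdkn1c and Phlda2 share a chromosome. In ES cells, imprinted genes are known to vary between lines and with culture.

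H19 is a long noncoding RNA that is also the precursor of miR-675, and its only probe set is annotated to H19 and Mir675 together, so its signal is given here for the pair. The mature arms of the miRNA are shown because they are the products of the transcript this probe set measures. RefSeq places them on the minus strand of GRCm38.p6, at chr7:142577112-142577133 for the 5p arm and chr7:142577078-142577099 for the 3p arm. Capitals mark the seed, bases 2 to 8, and the arms have different seeds.
mmu-miR-675-5p: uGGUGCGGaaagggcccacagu
mmu-miR-675-3p: cUGUAUGCccuaaccgcucagu

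Of the 10 genes, 7 had RefSeq promoter entries, 14 in all, each covering 250 bases before to 50 after the start. The Nnat promoter is shown because Nnat had the lowest OHT+ values relative to OHT- of all the leading probe sets described below. It lies on the plus strand of GRCm38.p6 at chr2:157559828-157560127.
Nnat promoter: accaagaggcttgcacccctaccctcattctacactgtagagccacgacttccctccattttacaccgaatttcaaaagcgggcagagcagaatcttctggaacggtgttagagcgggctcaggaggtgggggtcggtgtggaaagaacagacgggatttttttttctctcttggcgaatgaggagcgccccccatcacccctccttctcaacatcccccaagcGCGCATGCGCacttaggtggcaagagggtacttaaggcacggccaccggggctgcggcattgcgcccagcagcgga
Capitals mark the palindrome bound by NRF1, a transcription factor that binds unmethylated CG-rich sites. This promoter holds 17 CG dinucleotides, against a median of 7 over all 32544 promoters. The motifs searched, on both strands, do not overlap one another here. The NRF1 palindrome was in 1 of the 14 member promoters and in 0.974% of all promoters. The E2F6 core GCGGGAA, the E-box CACGTG and the YY1 core GCCATNTT were in 0 of the 14, and in 4.63%, 7.17% and 6.08% of all promoters. These are matches of letters only.

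The targeted genes were read first. Rybp probe set 1421111_at, which is annotated to Rybp and a Rybp pseudogene, read 53.9 to 102 on OHT+ arrays and 1785 to 2262 on OHT- arrays. The second Rybp probe set, 1428219_at, went the other way, with 2796 to 3443 on OHT+ arrays and 180 to 336 on OHT- arrays. Which part of the transcript each covers was not examined. Both Yaf2 probe sets were lower in Yaf2kd clones, at 221 to 254 against 601 to 658 in Yaf2wt for 1423399_a_at, and 238 to 297 against 769 to 816 for 1429839_a_at. The ES cell markers Pou5f1, Nanog and Sox2 had intensities of 6528 to 9629, 6642 to 11333 and 11463 to 14901 over the 6 arrays.

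Values are intensities that have been normalised between arrays, so each probe set is compared with itself across arrays. Different probe sets are put together only to rank them by brightness and in the summed marker intensities below. Of the 27 probe sets, 3 were dim, meaning that their mean log2 value lay in the lowest 40% (geometric mean intensity of 56.9 or less): Igf2 1415931_at, Peg3 1447731_at and Peg3 1447732_x_at. The brightest probe set of each gene leads its description, and none of these 10 was dim.

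The main question was how the imprinted genes differed between OHT+ and OHT- arrays. Across the 3 clones, limma was fitted to log2 intensity with OHT and Yaf2 status as terms, and p-values were adjusted by Benjamini-Hochberg over all 45037 probe sets with a threshold of 0.05. This fit called 0% of all probe sets and 0 of the 27 member probe sets. At an unadjusted p under 0.05 it had 2956 probe sets, 4 of them members (Cdkn1c, H19, Nnat and Peg10), and the lowest adjusted p of any probe set was 0.296. With a variance that follows intensity (the intensity trend of limma), 63 probe sets passed, or 0.14% of those tested, and 2 members were among them, Cdkn1c and H19. With dim probe sets left out, 9 passed, or 0.0333%, with 0 members. With 1 probe set per gene and dim genes left out, 38 of 10916 passed, or 0.348%, and Cdkn1c was among them. Dim genes here are the lowest 40% of genes by that probe set, with a geometric mean intensity below 106.2. A gene is written below as having risen only where it passed one of these fits, and the fit is named.

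**Figure D1:**
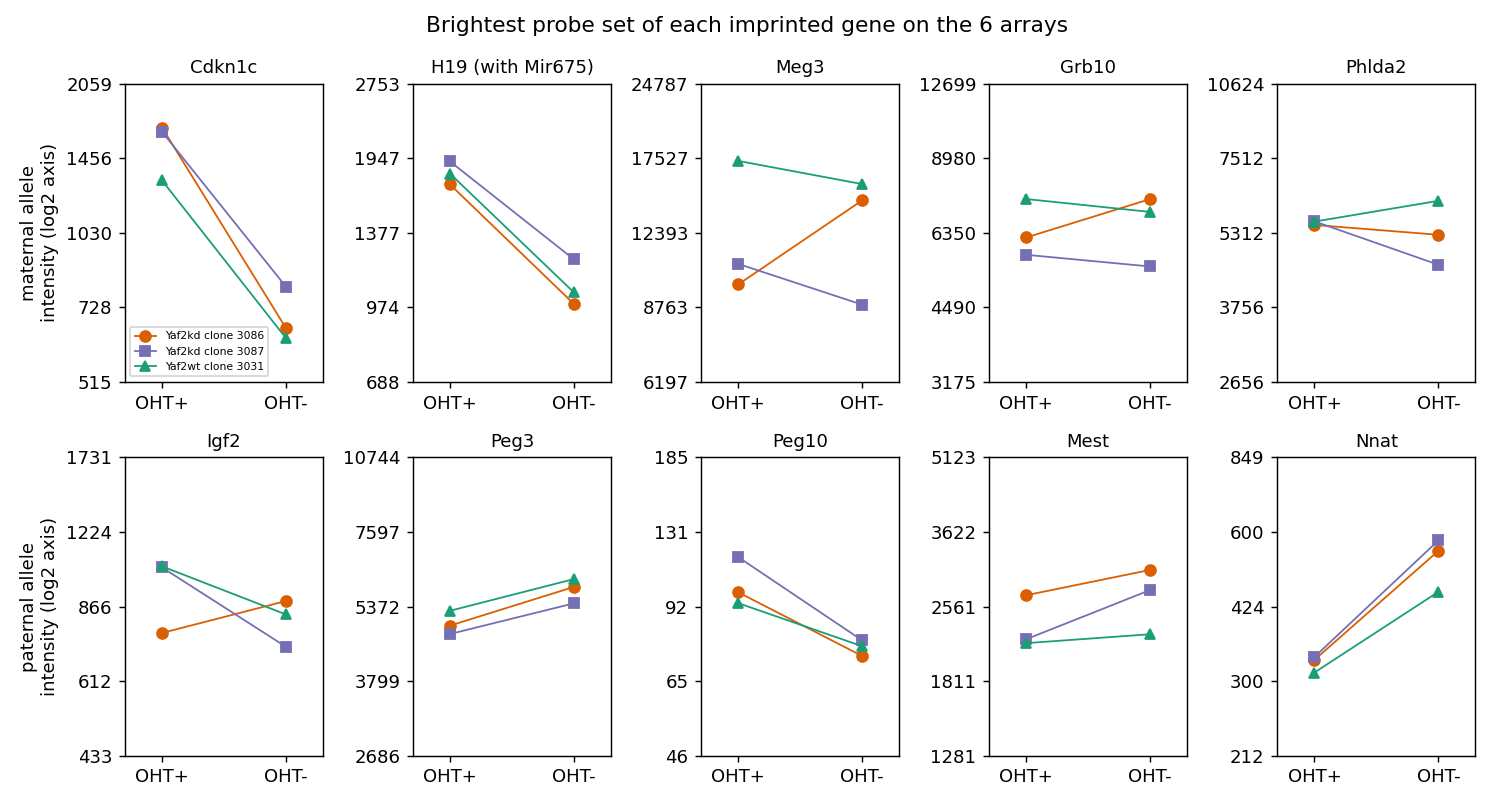
Intensity of the leading probe set of each of the 10 genes on the 6 arrays (log2 axis, OHT+ on the left and OHT- on the right of each panel, lines joining the 2 arrays of a clone). Cdkn1c and H19 were higher and Nnat was lower on the OHT+ array of every clone, and the groups do not overlap in these 3 panels.

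Cdkn1c rose after OHT when the intensity trend was used, and when 1 probe set per gene was tested with dim genes left out. Cdkn1c encodes p57, an inhibitor of cyclin-dependent kinases that restrains fetal growth. Probe set 1417649_at read 1679, 1647 and 1314 on the OHT+ arrays of clones 3086, 3087 and 3031, against 661, 802 and 631 on their OHT- arrays. Every OHT+ array was above every OHT- array. The means were 1547 ± 203 in OHT+ and 698 ± 90.9 in OHT- cells (SD, n = 3 each). The log2 differences of clones 3086, 3087 and 3031 were 1.34, 1.04 and 1.06, and the fitted value was 1.15 ± 0.15 (SE), a 2.21-fold higher level. Its limma adjusted p was 0.421 in the main setting, 0.00456 with the intensity trend and 0.131 without dim probe sets. The limma adjusted p of Cdkn1c was 0.0188 with 1 probe set per gene and dim genes left out. When arrays or clones were left out of the trend fit, it passed in 5 of 9 fits, with log2 differences from 1.05 to 1.21 and a highest limma adjusted p of 0.114. The fits that passed include those without clone 3086 and without clone 3087. In these the Yaf2 term also separates the clones, so they are not like the fits that keep all clones.

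The other members of the CIP/KIP family of CDK inhibitors did not pass in any of these fits. Cdkn1a, which encodes p21, read 926, 785 and 777 on the OHT+ arrays of clones 3086, 3087 and 3031, against 664, 689 and 651 on their OHT- arrays. Its log2 difference was 0.31 ± 0.14 (SE), and the groups did not overlap. Cdkn1b, which encodes p27, read 495, 396 and 598 on OHT+ arrays and 505, 1136 and 613 on OHT- arrays. Its log2 difference was -0.53 ± 0.40 (SE), and the OHT- array of clone 3087 stood above the rest.

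H19 rose after OHT in the fit with an intensity trend. Its probe set 1448194_a_at read 1723, 1917 and 1811 on the OHT+ arrays of clones 3086, 3087 and 3031, against 989, 1216 and 1043 on their OHT- arrays. The groups did not overlap and the 3 clones were alike, with log2 differences of 0.80, 0.66 and 0.80. The mean was 1817 ± 97.3 in OHT+ and 1083 ± 119 in OHT- cells (SD, n = 3 each), and the fitted log2 difference was 0.75 ± 0.16 (SE), or 1.68-fold. The limma adjusted p was 0.592 in the main setting, 0.0430 with the intensity trend and 0.300 without dim probe sets. H19 had no value in the fit with 1 probe set per gene, since its probe set carries a second symbol. When arrays or clones were left out of the trend fit, H19 passed in 3 of 9 fits, with log2 differences from 0.67 to 0.84 and a highest limma adjusted p of 0.570. As for Cdkn1c, these include the fits without clone 3086 and without clone 3087.

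Among the other maternally expressed genes, the leading probe sets differed little with OHT and the groups overlapped. Meg3 is a long noncoding RNA of the Dlk1-Dio3 cluster, and its leading probe set 1439380_x_at read 9746, 10724 and 17308 on OHT+ arrays, against 14404, 8874 and 15542 on OHT- arrays (clones 3086, 3087 and 3031). The OHT+ array was lower than the OHT- array in clone 3086 and higher in the other clones. Grb10, an adaptor that dampens insulin and IGF receptor signalling, read 6213, 5732 and 7427 in OHT+ and 7427, 5429 and 6995 in OHT- cells with 1425458_a_at. Its log2 difference was -0.03 ± 0.19 (SE), and those of its other probe sets were 0.02 ± 0.17 and -0.17 ± 0.20. Phlda2, which restrains growth of the placenta, read 5509, 5602 and 5595 in OHT+ and 5263, 4579 and 6162 in OHT- cells with 1417837_at. The OHT+ arrays were close together and lay inside the range of the OHT- arrays, and the log2 difference was 0.07 ± 0.16 (SE).

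The paternally expressed gene with the lowest OHT+ values relative to OHT- was Nnat. It encodes neuronatin, a small membrane proteolipid found in brain and endocrine cells. Probe set 1423506_a_at read 331, 336 and 312 on the OHT+ arrays of clones 3086, 3087 and 3031, against 550, 577 and 454 on their OHT- arrays. Every OHT+ array was below every OHT- array, and the means were 326 ± 12.4 in OHT+ and 527 ± 64.4 in OHT- cells (SD, n = 3 each). The log2 differences of the clones were -0.73, -0.78 and -0.54, and the fitted value was -0.68 ± 0.14 (SE), or 62.2% of the OHT- level. It did not pass in these fits: the limma adjusted p was 0.550 in the main setting, 0.172 with the intensity trend and 0.278 without dim probe sets. With 1 probe set per gene and dim genes left out, its limma adjusted p was 0.064. Blcap, the gene around Nnat, had a log2 difference of -0.01 ± 0.16 (SE).

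Peg10 and Peg3 also had groups that did not overlap, with smaller differences that did not pass. Peg10, a retrotransposon-derived gene needed for the placenta, read 98.8, 116 and 93.9 with 1427550_at on the OHT+ arrays of clones 3086, 3087 and 3031, against 73.5, 79.0 and 76.9 on their OHT- arrays. The log2 difference was 0.42 ± 0.15 (SE), with a limma adjusted p of 0.757 in the main setting and 0.785 with the intensity trend. These are low intensities, not far above the limit for a dim probe set. Their geometric mean of 88.5 is below the limit for a dim gene. Peg10 was therefore not in the fit with 1 probe set per gene and dim genes left out. Peg3, a zinc finger gene known for roles in growth and maternal behaviour, read 4917, 4728 and 5267 with 1433924_at on OHT+ arrays, against 5885, 5453 and 6104 on OHT- arrays. Its log2 difference was -0.23 ± 0.13 (SE), and its other probe sets above the dim limit, 1417355_at and 1417356_at, gave 0.14 ± 0.29 and -0.22 ± 0.17 with overlapping groups. The Peg3 probe sets thus did not share a direction.

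Mest and Igf2 had overlapping groups. Mest, which encodes an enzyme of the alpha/beta-hydrolase fold, read 2699, 2201 and 2161 with 1423294_at on the OHT+ arrays of clones 3086, 3087 and 3031, against 3037, 2766 and 2252 on their OHT- arrays. It was lower on the OHT+ array of each clone, by 0.17, 0.33 and 0.06 on the log2 scale, and the fitted difference was -0.19 ± 0.16 (SE). Igf2, the fetal growth factor, read 765, 1038 and 1043 with 1448152_at on OHT+ arrays, against 888, 718 and 834 on OHT- arrays. It was lower on the OHT+ array in clone 3086 and higher in clones 3087 and 3031, and the fitted log2 difference was 0.21 ± 0.20 (SE). Leaving out arrays or clones moved it between 0.0542 and 0.43, and that of Mest between -0.25 and -0.0841.

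Taken by allele, neither class had a common direction. Of the 5 maternally expressed genes, 3 leading probe sets were higher and 2 lower by the mean log2 difference (median 0.07). Of the 5 paternally expressed genes, 2 were higher and 3 lower (median -0.19). The median over all probe sets was -0.01. Over the 27 member probe sets, 13 were higher and 14 lower, and the OHT+ and OHT- groups did not overlap in 5 (18.5%), against 12.5% of all 45037 probe sets. Those 5 are the leading probe sets of Cdkn1c, H19, Peg10, Nnat and Peg3, and the other 22 probe sets, 4 of them on Peg3 and 18 on the other 5 genes, had overlapping groups.

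The next question was whether the OHT difference depended on Yaf2. In Yaf2kd clones, the log2 OHT difference was 1.19 ± 0.22 (SE) for Cdkn1c, 0.73 ± 0.23 for H19 and -0.76 ± 0.20 for Nnat. In the Yaf2wt clone, with 1 array against 1 and no test, it was 1.06, 0.80 and -0.54. The difference between the clone types was 0.13 ± 0.38 (SE) for Cdkn1c, -0.07 ± 0.40 for H19 and -0.22 ± 0.34 for Nnat. In that comparison limma called 0% of all probe sets and 0 members, with 2289 probe sets and 0 members at an unadjusted p under 0.05. The lowest unadjusted p of a member was 0.0604, at the dim Peg3 probe set 1447731_at. This comparison takes the single Yaf2wt arrays to vary as much as the Yaf2kd arrays do. In the Yaf2kd clones alone, limma called 0% of all probe sets in the main setting, where 2759 had an unadjusted p under 0.05, and 17 or 0.0377% with the intensity trend, of which 0 were members. Cdkn1c did pass in these clones when the intensity trend was combined with leaving out dim probe sets (limma adjusted p = 0.0440, with 0.111% of probe sets called) or with clone as a block (limma adjusted p = 0.0170, with 0.113% called).

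**Figure D2:**
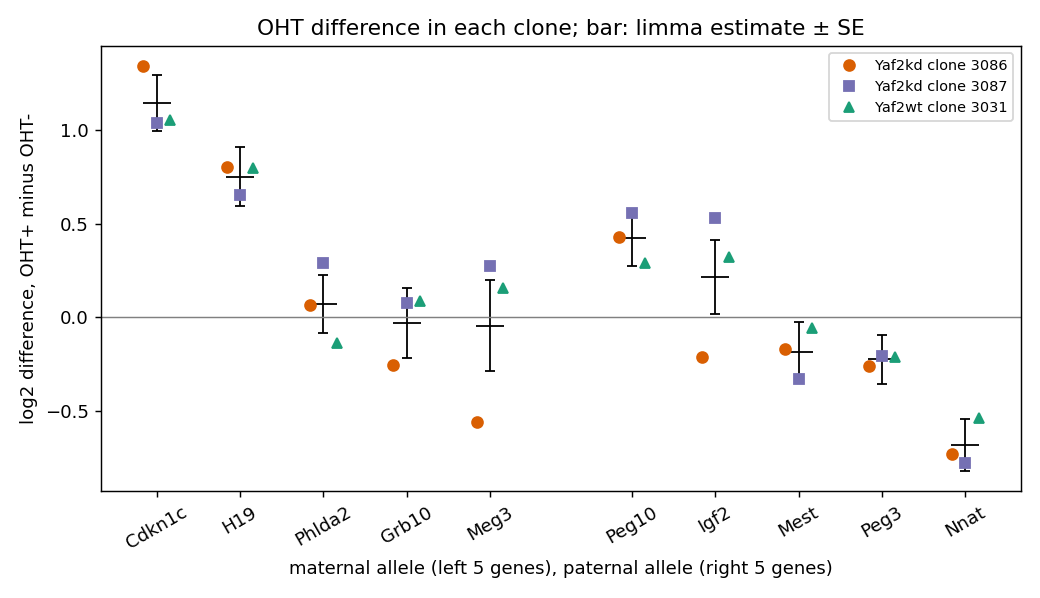
Log2 difference of OHT+ minus OHT- in each clone for the leading probe sets, grouped by expressed allele. Cdkn1c, H19, Peg10, Nnat, Peg3 and Mest lay on 1 side of 0 in all 3 clones, and Meg3, Grb10, Phlda2 and Igf2 did not. Over all 27 member probe sets 7 did (25.9%), against 31.3% of all probe sets.

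Yaf2kd and Yaf2wt clones were compared next, adjusted for OHT. The fit has no clone term, so the arrays of a clone count as separate samples. Its standard errors and p-values do not measure the spread between Yaf2wt clones. Limma called 0% of all probe sets and 0 members in this comparison, in the main setting, with the intensity trend and without dim probe sets. The same held with 1 probe set per gene and dim genes left out. In the main setting 3011 probe sets had an unadjusted p under 0.05, and 4 of them were members, 3 of Meg3 and the dim Igf2 probe set. Yaf2kd and Yaf2wt arrays did not overlap in 9 of the 27 member probe sets (33.3%), against 18.2% of all probe sets. Of the 9, 8 belong to Meg3 and were lower in the Yaf2kd clones, and the ninth is the dim Igf2 probe set.

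Meg3 is represented by 11 probe sets, which share a gene and are not independent. Its leading probe set 1439380_x_at read 9746 and 10724 on OHT+ and 14404 and 8874 on OHT- arrays of Yaf2kd clones 3086 and 3087, against 17308 and 15542 on the OHT+ and OHT- arrays of Yaf2wt clone 3031. All 4 Yaf2kd arrays were below both Yaf2wt arrays, and the OHT- array of clone 3086 was the closest to them. The mean was 10937 ± 2431 in Yaf2kd (SD, n = 4 arrays of clones 3086 and 3087) and 16425 ± 1248 in Yaf2wt (SD, n = 2 arrays of clone 3031). The log2 difference was -0.61 ± 0.26 (SE), or 65.5% of the Yaf2wt level. Its limma adjusted p was 0.746 in the main setting and 0.366 with the intensity trend, so it did not pass.

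Across the 11 Meg3 probe sets, the log2 difference of Yaf2kd from Yaf2wt ran from -0.81 to 0.06 with a median of -0.58, and 10 of 11 were below 0. The 8 whose arrays did not overlap were all lower in Yaf2kd, 72.7% of the 11, against 9% of all probe sets in that direction. Probe set 1452906_at read 366 and 462 on OHT+ and 407 and 389 on OHT- arrays of Yaf2kd clones 3086 and 3087, against 889 and 569 on the arrays of Yaf2wt clone 3031. Probe set 1452905_at, among the brightest, read 6553 and 7171 on OHT+ and 8078 and 6382 on OHT- arrays of the Yaf2kd clones, against 10260 and 10752 in the Yaf2wt clone. The 3 that overlapped were 1429257_at, 1436057_at and 1429256_at. Names ending in x_at or s_at mark probe sets that can hybridise to more than 1 transcript, and 5 of the 8 other Meg3 probe sets were among those that did not overlap. The lowest limma adjusted p of any Meg3 probe set was 0.743 in the main setting and 0.232 with the intensity trend. Without the Yaf2kd OHT- array of clone 3086, the trend fit called 8 of 45037 probe sets, or 0.0178%, and 4 of them were Meg3 probe sets, with a log2 difference of -0.78 and a limma adjusted p of 0.0450 for 1439380_x_at. That was the only 1 of the 6 fits with an array left out in which this probe set passed, and the limma adjusted p ran from 0.0450 to 0.999 and the log2 difference from -0.78 to -0.46.

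**Figure D3:**
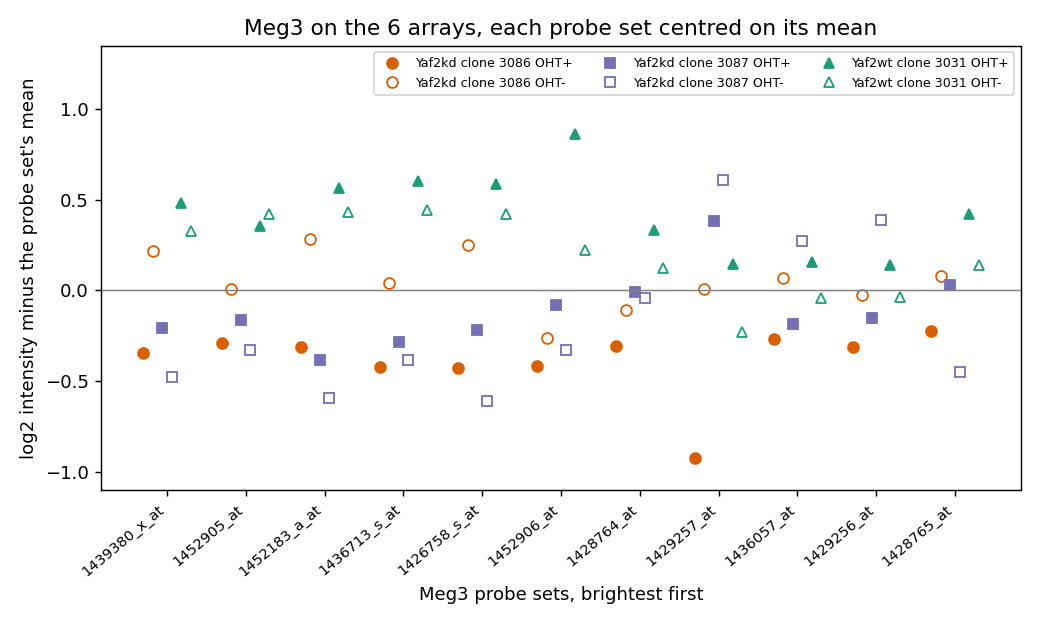
Log2 intensity of the Meg3 probe sets on the 6 arrays, each probe set centred on its own mean over these 6 arrays. In 8 of the 11 probe sets all 4 Yaf2kd arrays lie below both Yaf2wt arrays.

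Other transcripts of the Meg3 cluster are given for comparison and were chosen after their values were seen. Mirg, a noncoding RNA downstream of Meg3, read 966 and 852 on OHT+ and 1243 and 851 on OHT- arrays of Yaf2kd clones 3086 and 3087, against 1406 and 1328 on the arrays of Yaf2wt clone 3031. Its arrays did not overlap, and its log2 difference was -0.50. Rian, which hosts small nucleolar RNAs, had a log2 difference of -0.45 with overlapping arrays. Dlk1, the paternally expressed ligand-like gene of the cluster, differed by 0.02 between Yaf2kd and Yaf2wt. With OHT, Dlk1 read 376, 492 and 386 on the OHT+ arrays of clones 3086, 3087 and 3031, against 290, 200 and 261 on their OHT- arrays. That log2 difference was 0.75 ± 0.23 (SE), the groups did not overlap, and its limma adjusted p was 0.706 in the main setting and 0.326 with the intensity trend. None of these genes passed.

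The remaining members had overlapping Yaf2kd and Yaf2wt arrays at their leading probe sets. Cdkn1c, H19 and Nnat, which had the largest OHT differences by size among the leading probe sets, differed by 0.27 ± 0.16, 0.04 ± 0.17 and 0.20 ± 0.15 (SE) between Yaf2kd and Yaf2wt on the log2 scale. The dim Igf2 probe set 1415931_at read 35.7 and 37.2 on OHT+ and 29.8 and 10.8 on OHT- arrays of Yaf2kd clones 3086 and 3087, against 4.75 and 4.34 on the arrays of Yaf2wt clone 3031. The bright Igf2 probe set did not share this direction, with a log2 difference of -0.15 ± 0.21 (SE).

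Imprinted genes outside the 10 did not pass in any of the 4 fits of the OHT difference that tested them. Each is given by its brightest probe set that carries no other symbol. The largest log2 differences by size were 1.67 ± 0.86 (SE) for the maternally expressed Osbpl5 and -1.58 ± 0.33 for the paternally expressed Snrpn. The groups did not overlap in either, and both are low, at 11.1 to 167 for Osbpl5 and 24.9 to 120 for Snrpn. Neither gene was in the fit with 1 probe set per gene and dim genes left out. The lists go by the allele expressed in some mouse tissue, and the allele expressed in these cells was not measured. Of 22 listed maternally expressed genes, 20 were measured, and 12 were higher and 8 lower after OHT (median 0.02). Of 24 listed paternally expressed ones, 20 were measured, with 12 higher and 8 lower (median 0.07). Of 19 neighbours of the members in their clusters, some of which are on these lists too, 17 were measured, with 11 higher and 6 lower (median 0.08).

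Near Cdkn1c, Slc22a18, a maternally expressed transporter gene, read 181, 277 and 207 on the OHT+ arrays of clones 3086, 3087 and 3031, against 180, 136 and 168 on their OHT- arrays. Its groups did not overlap, although clone 3086 had nearly the same value on both arrays, and its log2 difference was 0.44 ± 0.24 (SE). Ascl2, a transcription factor gene needed for the placenta, read 347, 286 and 326 on OHT+ arrays, against 157, 201 and 255 on OHT- arrays. Its groups did not overlap, and its log2 difference was 0.67 ± 0.21 (SE), with a limma adjusted p of 0.706 in the main setting and 0.405 with the intensity trend. Cd81 and Nap1l4 were also higher on the OHT+ array of each clone, with overlapping groups and log2 differences of 0.14 ± 0.13 and 0.08 ± 0.13 (SE). Kcnq1ot1, the noncoding RNA that silences the cluster in cis on the paternal chromosome, read 502, 665 and 758 on OHT+ arrays and 717, 614 and 786 on OHT- arrays. Its log2 difference was -0.15 ± 0.18 (SE) with overlapping groups. Phlda2, described above, lies on the far side of Slc22a18 and had a difference of 0.07.

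**Figure D4:**
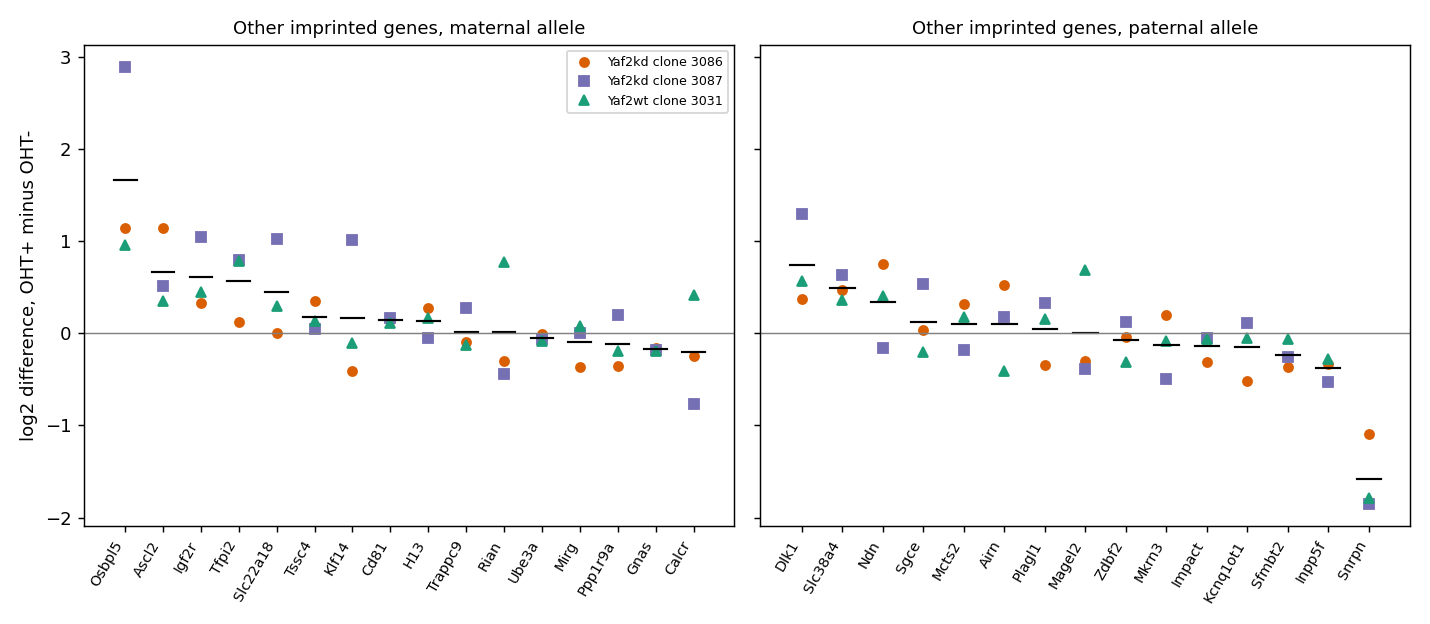
Log2 difference of OHT+ minus OHT- in each clone for the imprinted genes outside the 10, with a line at the fitted value. Genes are grouped by the allele listed as expressed. Genes whose probe set is dim are left out. This keeps 16 of the 20 measured maternally expressed genes and 15 of the 20 measured paternally expressed genes. Values lie on both sides of 0 in both classes, and no gene passed.

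In the insulin-like growth factor axis, through which Igf2, Grb10 and Igf2r act, 1 of 17 measured genes of 18 listed passed. Igf2bp3, an RNA-binding protein known to bind Igf2 mRNA, fell after OHT in the fit with an intensity trend (limma adjusted p = 0.0303), in which 0.0244% of all probe sets fell. It read 1759, 1530 and 1319 on the OHT+ arrays of clones 3086, 3087 and 3031, against 3033, 2477 and 2372 on their OHT- arrays. The groups did not overlap, and the log2 difference was -0.78 ± 0.16 (SE). It did not pass in the main setting (limma adjusted p = 0.589), without dim probe sets (0.300) or with 1 probe set per gene and dim genes left out (0.0750). Of the 17, 5 were higher and 12 lower after OHT (median -0.23, against -0.01 over all probe sets). Igf2r, the receptor that clears IGF2 and is itself listed as maternally expressed, had a log2 difference of 0.61 ± 0.20 (SE) and did not pass.

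Among 19 measured of 20 listed factors that set or keep imprints, 10 were higher and 9 lower after OHT (median 0.02), and none passed in these fits. Dnmt1, which copies DNA methylation, had a log2 difference of 0.02 ± 0.18 (SE), and Uhrf1, its partner, had -0.01 ± 0.14. Zfp57, which binds methylated imprinting control regions, had 0.08 ± 0.14, and Trim28, its corepressor, had -0.07 ± 0.13. Ctcf, which insulates Igf2 from the enhancers it shares with H19, had -0.06 ± 0.16. Those 5 differences were smaller than their standard errors. Of the 19, 5 exceeded 1 standard error, and 3 of these had larger differences. Dppa3, which protects maternal methylation in the early embryo, read 2757, 3391 and 2033 on the OHT+ arrays of clones 3086, 3087 and 3031, against 1765, 2101 and 1436 on their OHT- arrays. It was higher on the OHT+ array of each clone, with overlapping groups and a log2 difference of 0.61 ± 0.17 (SE). Dnmt3l, the cofactor needed to set imprints in germ cells, had 0.42 ± 0.14, and the de novo methyltransferase Dnmt3b had -0.30 ± 0.14. Neither had overlapping groups. The limma adjusted p with the intensity trend was 0.120 for Dppa3, 0.156 for Dnmt3l and 0.314 for Dnmt3b.

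Feeder fibroblasts also express several imprinted genes, so their markers were read on the same arrays. Of 24 measured fibroblast markers of 25 listed, 18 were higher and 6 lower after OHT (median log2 difference 0.37). Of these markers 13 were higher in all 3 clones, and none passed any of the 4 fits of the OHT difference that tested it. OHT+ and OHT- groups did not overlap for Col1a2, Col5a2, Pdgfrb, Mmp2, Timp3 and Cdh11, each of them higher after OHT. Over all probe sets, 12.5% had OHT groups that did not overlap. The summed intensity of the 24 was 24907 to 29766 on OHT+ arrays and 24686 to 30492 on OHT- arrays. The OHT+ to OHT- ratios of the sum were 0.954, 1.21 and 0.997 (clones 3086, 3087 and 3031). This sum is weighted to its brightest probe sets and does not follow the median marker. Among the brightest, the log2 OHT difference was -0.03 for Fn1, -0.02 for Sparc, -0.26 for Tagln and 0.31 for Acta2. Between Yaf2kd and Yaf2wt, 19 fibroblast markers were higher and 5 lower (median log2 difference 0.30), and none passed. Arrays of Yaf2kd and Yaf2wt did not overlap in 7 of the 24, Acta2, Tagln, Thy1, Loxl1, S100a4, Sparc and the dim Lum, and all 7 were higher in Yaf2kd. Over all probe sets, 18.2% did not overlap in this comparison, in either direction. The sum was 24686 to 30492 on Yaf2kd and 24907 to 24992 on Yaf2wt arrays. Lum, Dcn and Prrx1 were dim, and no marker was at 0. Of 11 ES cell markers, 9 were higher and 2 lower after OHT, with sums of 107588 to 113300 on OHT+ and 97009 to 103709 on OHT- arrays. In Yaf2kd, 3 ES cell markers were higher and 8 lower than in Yaf2wt (median -0.15), with sums of 97009 to 108463 and 103709 to 113300. The part of these cell types in the OHT differences of Cdkn1c, H19 and Nnat and in the Yaf2 difference of Meg3 was not tested. In bulk RNA, more cells of a type and more RNA per cell cannot be told apart.

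Markers of other lineages did not pass either. Their summed intensities on OHT+ and OHT- arrays were 6506 to 8573 and 7001 to 9189 for trophectoderm (10 of 12 markers measured, 3 higher and 7 lower), 7623 to 8453 and 6788 to 7521 for primitive endoderm (12 of 12, 8 higher and 4 lower), 1250 to 1496 and 1523 to 1867 for neural cells (9 of 10, 3 higher and 6 lower), and 515 to 793 and 533 to 689 for mesoderm (9 of 10, 4 higher and 5 lower). The neural sum, which bears on Nnat as a gene of neural tissue, was lower on the OHT+ array of each clone, at 0.828, 0.694 and 0.821 of the OHT- array in clones 3086, 3087 and 3031. The trophectoderm sum, which bears on the placental genes Phlda2 and Peg10, was also lower on the OHT+ array of each clone, at 0.935, 0.766 and 0.929. The primitive endoderm sum was higher on the OHT+ array of each clone. These sums too are weighted to their brightest probe sets. The part of these lineages in the results was not tested.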

How the data were processed

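Total RNA of 6 ES cell samples was measured on Affymetrix arrays. The authors deposited 1 table of probe-set intensity on a linear scale; per the submitters' processing notes, Affymetrix Expression Console and RMA were used, with role and version not given in the sources used here. All 6 arrays held the same sorted values, as after quantile normalisation, with a median intensity of 102. Precision is limited by the number of arrays. The design named log2 values, so log2 of intensity with no pseudocount was used. The table has 45101 probe sets, 64 of them controls, although the series text names the 430A 2.0 array. GEO's platform annotation gave 1 symbol to 34958 probe sets, several to 932 and none to 9211.

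Fits used limma 3.58.1 (R 4.3.3), lmFit and eBayes, with Benjamini-Hochberg adjustment over all probe sets tested and a threshold of 0.05, and were tested on simulated data. The OHT and Yaf2 comparisons had 3 residual degrees of freedom, and the 4-group model had 2. Alternatives were an intensity trend, leaving out dim probe sets, 1 probe set per gene, log2(intensity + 16), each array or clone left out, and clone as a block. Some were combined after the data were seen, among them 1 probe set per gene with dim genes left out. Within Yaf2kd and within Yaf2wt, a replicate number marks 1 clone, so OHT+ and OHT- arrays are paired by clone. The difference between clones 3086 and 3087 with OHT correlated with that without OHT at r = 0.13 over 27022 probe sets, which are not independent. Named are all members, targeted genes, list genes called in a fit and neighbours of called members. List genes other than members and targeted genes are given by their brightest probe set that carries no other symbol. Examples from lists with few or no calls were chosen after their values were seen. Members and lists were chosen with earlier results of these data known.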

Additional observations from a re-analysis of the deposited data

How the results depend on the processing

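Cdkn1c, H19 and Nnat kept the direction of their OHT difference in every setting run, and only the side of the threshold moved, for Cdkn1c and H19. The main OHT fit called 0 probe sets. It called 63 with an intensity trend, 9 without dim probe sets, 90 with both, 38 with 1 probe set per gene and dim genes left out, and 101 with a replicate block and an intensity trend. Member probe sets among them were 2, 0, 2, 1 and 2. With a replicate block alone, or with a block and dim probe sets left out, the count stayed at 0, and the block changed no other call but those given here. Leaving out arrays or clones gave 0 to 293 calls and 0 to 2 members. With the intensity trend the count was 18 without clone 3031, 205 without clone 3086 and 293 without clone 3087, and 14 without the Yaf2wt OHT+ array. The Yaf2 comparison had 0 to 8 calls and 0 to 4 members when arrays were left out. The OHT difference in Yaf2kd clones had 0 calls in the main fit, 17 with an intensity trend, 30 with the trend and no dim probe sets, 51 with a replicate block and the trend, 4 with 1 probe set per gene, and 0 to 17 with arrays left out; members were 1 with the trend and no dim probe sets and 1 with the block and trend. Leaving out arrays or clones turned the sign of small differences: OHT Meg3 -0.22 to 0.21, Grb10 -0.14 to 0.12 and Phlda2 -0.0368 to 0.18, Yaf2 H19 -0.0304 to 0.0978 and Peg10 -0.0129 to 0.19, and, for the dependence of the OHT difference on Yaf2, Cdkn1c -0.00417 to 0.27 and H19 -0.22 to 0.0825. In the OHT fits without clone 3086 or without clone 3087, the Yaf2 term also separates the clones. The cause of the changes between settings was not tested, apart from the smaller number of probe sets, genes or arrays that some settings use. Dim probe sets had a median replicate SD of 0.89 on the log2 scale, against 0.21 for the rest.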
